A study of Mus musculus with 81 samples.

Results

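The CXC chemokines followed here are 7 genes, Cxcl1, Cxcl2, Cxcl3, Cxcl9, Cxcl10, Cxcl14 and Cxcl16, taken by symbol from the 13 Cxcl symbols among the 55462 genes counted in a mouse RNA-seq study of histone H3.3. The study deleted H3.3 in myeloid cells and followed the formation and gene expression of macrophages. WT mice carried floxed H3f3a and H3f3b, the pair of genes that encode H3.3, and no cre; cKO mice carried the same floxed genes with LysM cre in both Lyz2 copies, which drives cre from the Lyz2 promoter, active in myeloid cells. Mice were derived from a C57BL/6 background, of both sexes, 8 to 10 weeks of age. The paper lists the source lines of LysM cre, Sting KO, Mavs KO and Irf7 KO with another strain in their origin. It lists the double KOs themselves on the C57BL/6 background. How much of the other strain remained in the double KOs is not given. Bone marrow cells of WT and cKO mice were grown in medium with L929 supernatant as the source of M-CSF, and were sequenced on days 3 and 5 (labelled BMDM progenitors) and on day 7 (labelled BMDM, bone marrow-derived macrophages). BMDMs of day 8 were left untreated or given IFNγ for 12 h. In the antibody experiment BMDMs grew without antibody, with a control antibody or with an antibody against IFNAR1, a subunit of the type I interferon receptor, present from the start of culture. By the paper's methods the cells of this experiment were lysed before day 7. The remaining groups were peritoneal macrophages of WT and cKO mice, and BMDMs of the 3 double KOs (cKO:Sting KO, cKO:Mavs KO and cKO:Irf7 KO) with 3 sets each of WT and cKO BMDMs, called sets 1, 2 and 3. Of 81 libraries in 5 experiments, 79 were placed in 27 groups of 3, or of 2 for the day 8 cKO groups. The other 2 are day 8 cKO libraries whose title and library name disagree on IFNγ.

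Libraries held 14419697 to 20220329 counts in the time course, 3614967 to 10498769 on day 8, 21504555 to 45581528 with the double KOs, 5295144 to 34380735 in the antibody arms and 7625225 to 23381318 among peritoneal libraries. H3f3a was lower in cKO in all 12 comparisons of cKO with WT, whereas H3f3b passed the test in only 3 of them, those of the antibody experiment. Macrophage markers were high in every group, with the summed CPM of the 6 genes between 2476 and 11307 per library, and T and NK cell markers were near 0 outside the peritoneal libraries. Markers Gata6 and Timd4 of resident peritoneal macrophages summed to 1134 to 1647 CPM in the peritoneal libraries and at most 22.7 elsewhere. The labels number replicates without naming animals, so p-values measure the spread between these libraries. They also name no double KO for a set of WT and cKO BMDMs. Each double KO was therefore compared with the mean of the 3 sets. In the order of the series, sets 1, 2 and 3 stand directly before cKO:Sting KO, cKO:Mavs KO and cKO:Irf7 KO. Libraries of set 3 and cKO:Irf7 KO listed 54146 genes, and those of sets 1 and 2, cKO:Sting KO and cKO:Mavs KO listed 55536. The mean of the 3 sets thus spans both gene lists, and the 54079 genes present in all of these libraries entered the filter. Sets 1 and 3 may not be independent, since same-numbered WT libraries of these sets deviated together, with r of 0.386, 0.316 and 0.143 across genes. Mavs stood at 37.1 to 37.8 CPM in the libraries labelled cKO:Mavs KO, overlapping the 36.0 to 41.9 CPM of cKO set 3, and whether the counted exons include the deleted ones was not examined, so this count over the whole gene neither checks nor contradicts the label. Tmem173, which encodes Sting, was at 5.01 to 6.10 CPM in the cKO:Sting KO libraries against 68.2 to 91.6 CPM in the 3 cKO sets.

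Chemokines are small secreted proteins that direct leukocyte movement through G protein-coupled receptors. Cxcl9 and Cxcl10 are interferon-induced ligands of Cxcr3, a receptor of activated T and NK cells. Cxcl1, Cxcl2 and Cxcl3 carry a Glu-Leu-Arg (ELR) motif ahead of the CXC cysteines and attract neutrophils through Cxcr2. Cxcl16 is made as a membrane-bound protein that ADAM proteases can release, and its receptor is Cxcr6. Cxcl14 is a homeostatic chemokine of epithelia and other tissues. In macrophages the Cxcr3 ligands are classical readouts of interferon signalling and the ELR ligands of NF-κB signalling.

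Promoter sequences were found for 6 of the 7 genes in the RefSeq table of the GRCm38.p6 build. The 250 bases before the annotated start are shown for the Cxcr3 ligands and the ELR ligands, since both groups lie on chromosome 5 and Cxcl9 and Cxcl10 rose while Cxcl2 fell after IFNγ. Capitals mark matches to the letters AAANNGAAA (a core of the interferon-stimulated response element), GGGNNNTTC (like NF-κB sites), TTCNNNGAA (like the gamma-activated sequence) or TATAAA (the TATA box), searched on both strands, with overlapping matches merged in the capitals.
Cxcl10 at chr5:92348890-92349139, minus strand: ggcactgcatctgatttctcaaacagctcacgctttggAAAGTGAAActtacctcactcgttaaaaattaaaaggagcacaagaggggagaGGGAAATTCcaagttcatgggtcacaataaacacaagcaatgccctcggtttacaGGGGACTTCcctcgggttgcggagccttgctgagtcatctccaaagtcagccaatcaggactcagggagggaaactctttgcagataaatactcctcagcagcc
Cxcl9 at chr5:92328080-92328329, minus strand: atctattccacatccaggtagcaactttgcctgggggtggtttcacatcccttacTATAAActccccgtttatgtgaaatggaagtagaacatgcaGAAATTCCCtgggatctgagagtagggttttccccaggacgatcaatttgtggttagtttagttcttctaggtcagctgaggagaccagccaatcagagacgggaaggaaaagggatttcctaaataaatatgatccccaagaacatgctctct
Cxcl1 at chr5:90890995-90891244, plus strand: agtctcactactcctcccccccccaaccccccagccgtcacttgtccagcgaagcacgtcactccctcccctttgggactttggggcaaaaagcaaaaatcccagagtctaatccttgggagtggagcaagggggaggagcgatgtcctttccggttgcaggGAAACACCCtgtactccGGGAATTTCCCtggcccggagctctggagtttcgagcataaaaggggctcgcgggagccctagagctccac
Cxcl2 at chr5:90903649-90903898, plus strand: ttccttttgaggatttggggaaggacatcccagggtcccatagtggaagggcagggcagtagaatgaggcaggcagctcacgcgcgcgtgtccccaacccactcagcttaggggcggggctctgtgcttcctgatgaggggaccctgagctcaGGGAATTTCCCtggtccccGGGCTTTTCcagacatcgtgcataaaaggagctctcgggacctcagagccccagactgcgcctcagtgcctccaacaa
Cxcl3 at chr5:90785851-90786100, plus strand: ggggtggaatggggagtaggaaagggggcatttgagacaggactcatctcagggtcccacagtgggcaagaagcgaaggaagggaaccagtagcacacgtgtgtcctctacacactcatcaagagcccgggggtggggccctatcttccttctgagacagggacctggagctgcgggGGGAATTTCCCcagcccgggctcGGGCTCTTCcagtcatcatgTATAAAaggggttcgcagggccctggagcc
The Cxcl10 window held an interferon element core 212 to 204 bases before the start, and NF-κB-like letters at 159 to 151 and at 104 to 96. Cxcl9 had NF-κB-like letters at 154 to 146 bases before its start and TATAAA at 195 to 190. All 3 ELR genes held NF-κB-like letters within the last 100 bases, as overlapping matches on both strands at 71 to 61 bases before the start in Cxcl1, at 97 to 87 in Cxcl2 and at 73 to 63 in Cxcl3. In Cxcl14, not printed, an interferon element core lay at 171 to 163 and a TTCNNNGAA match at 191 to 183. Among 32851 promoter windows of the same length, 9.37% held AAANNGAAA, 11.8% GGGNNNTTC, 7.02% TTCNNNGAA and 12.4% TATAAA. A match is a description of letters, and the absence of one says nothing about a factor.

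Cxcl10 (ENSMUSG00000034855.13, chr5:92346638-92348889 on GRCm38, minus strand) was higher in cKO than in WT cells early in differentiation. On day 3 the WT libraries stood at 7.63, 2.93 and 1.23 CPM and the cKO libraries at 62.9, 25.4 and 45.3 CPM. Every cKO library lay above every WT library, with a log2 fold change of 3.53 ± 0.83 (SE, n = 3 against 3) and an adjusted p of 0.0132. Cxcl10 was the only one of the 6 tested members called on day 3, when 8.65% of all tested genes were called. On day 5 WT libraries were at 4.06, 4.14 and 5.05 CPM and cKO libraries at 88.0, 20.8 and 25.4 CPM. The groups again did not overlap, and the log2 fold change was 3.33 ± 0.81 (adjusted p = 0.0337). Cxcl10 was again the 1 called member of 6, against 3.12% of genes. The day 3 call was lost without WT replicate 2 (adjusted p = 0.0672) or WT replicate 3 (0.0533), and the day 5 call without WT replicate 1, 2 or 3 (0.122, 0.137 and 0.129) or cKO replicate 1 (0.219, with a log2 fold change of 2.39) and when only the WT and cKO libraries of day 5 were fitted (0.0547). On day 3 the summed CPM of 5 B cell markers was 11.6 to 12.7 in WT and 24.9 to 52.8 in cKO, with 5 of 5 higher, and that of 5 dendritic cell markers was 2.79 to 7.15 and 9.92 to 12.9, with 2 of 5 higher. On day 5 the dendritic cell markers summed to 2.44 to 4.25 CPM in WT and 4.65 to 10.06 CPM in cKO, and stromal markers to 17.5 to 55.7 CPM and 84.9 to 123.5 CPM, without overlap, although 0 of 5 and 0 of 7 tested were called. Dcn and Lum, of the stromal list, were at 0 in WT on that day. Neutrophil markers summed to 1869 to 3418 CPM in WT and 2952 to 4444 CPM in cKO on day 3. On day 5 their sums were 621 to 662 CPM in WT and 593 to 1859 CPM in cKO, and the genotypes overlapped on both days. The part of these markers in the Cxcl10 results was not tested, and in these bulk samples fewer cells of a type and less RNA per cell cannot be told apart.

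By day 7 the genotypes overlapped. Cxcl10 stood at 88.7, 9.15 and 13.8 CPM in WT and at 43.7, 34.2 and 37.7 CPM in cKO, with 1 WT library above and the other 2 below all cKO libraries. The log2 fold change was 0.04 ± 0.71 (adjusted p = 0.986), and it rose to 1.74 (adjusted p = 0.101) without WT replicate 1. No member was called on day 7 with edgeR, when 1.82% of genes were called. At an unadjusted p under 0.05 there were 0 of 6 members and 2654 of 15955 genes. DESeq2 called 0 members and 744 genes. Within WT cells Cxcl10 rose from day 3 to day 7 by 3.28 ± 0.82 on the log2 scale (adjusted p = 0.0105), a call lost without WT day 7 replicate 1 (1.58, adjusted p = 0.0707) and when only these 2 groups were fitted (adjusted p = 0.0915). In cKO cells the difference between the days was −0.21 ± 0.71 (adjusted p = 0.877), which turned to 0.12 without cKO day 3 replicate 1. The change of the cKO effect between the days was −3.49 ± 1.08 and missed the threshold (adjusted p = 0.162). No member passed for that change with edgeR or DESeq2, where edgeR called 0.0439% of genes. At an unadjusted p under 0.05 there were 2 of 6 members and 2491 of 15955 genes.

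**Figure D1:**
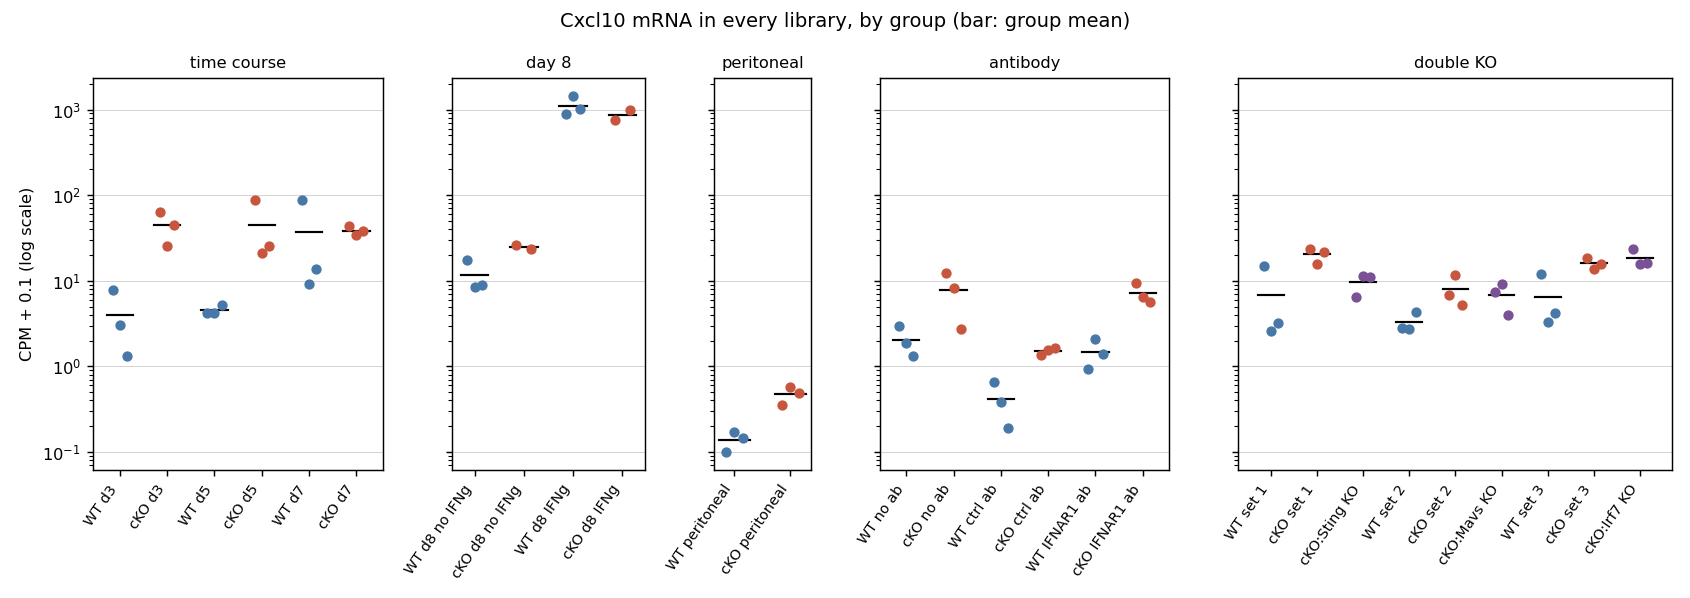
Cxcl10 level in every placed library, as CPM + 0.1 on a log axis, by group within each of the 5 experiments. Points are libraries (blue WT, red cKO, purple double KO) and bars are group means. The cKO points of days 3 and 5 lie above all WT points, those of day 7 overlap with WT, and all IFNγ points lie at 751 CPM or more.

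In day 8 BMDMs without IFNγ, Cxcl10 was at 17.5, 8.27 and 8.73 CPM in WT and at 25.8 and 23.1 CPM in cKO. Both cKO libraries lay above the WT libraries, with a log2 fold change of 1.09 ± 0.32 that missed the threshold (adjusted p = 0.331) but passed it with no filter on low counts (adjusted p = 0.00203). No member was called with edgeR or DESeq2 there, where edgeR called 0.658% of genes. At an unadjusted p under 0.05 there were 1 of 6 members and 793 of 13075 genes. After IFNγ the WT libraries reached 892, 1432 and 1018 CPM and the cKO libraries 751 and 986 CPM. On the log2 scale IFNγ raised Cxcl10 by 6.60 ± 0.37 in WT (adjusted p = 1.29e-06) and by 5.15 ± 0.42 in cKO (adjusted p = 2.37e-05). The genotypes overlapped under IFNγ, where the cKO against WT log2 fold change of Cxcl10 was −0.36 ± 0.32 (adjusted p = 0.515). The IFNγ effect on Cxcl10 differed between genotypes by −1.45 ± 0.46, which missed the threshold (adjusted p = 0.478) but passed it with no filter on low counts (−1.55, adjusted p = 0.00586). Without cKO IFNγ replicate 2, which leaves 1 cKO library with IFNγ, the difference was −1.69.

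Cxcl9 (ENSMUSG00000029417.9, chr5:92321347-92328079, minus strand) behaved as an almost silent gene outside IFNγ. Its counts were 0 in all WT libraries of day 3, of the no antibody arm and of the control antibody arm, which allows up to 0.0576, 0.0473 and 0.0689 CPM (3 counts over each group), and no BMDM or progenitor library without IFNγ exceeded 1.25 CPM. On day 8 WT libraries held 0.438, 0.212 and 0.175 CPM without IFNγ and 1979, 3980 and 3206 CPM with it. Cxcl9 in cKO libraries went from 0.324 and 0.585 CPM to 201 and 1420 CPM. Treated and untreated libraries were far apart in both genotypes, with log2 fold changes of 13.40 ± 0.94 in WT (adjusted p = 4.3e-06) and 10.78 ± 1.05 in cKO (adjusted p = 6.02e-05). Under IFNγ both cKO libraries lay below all WT libraries, by −1.91 ± 0.65 on the log2 scale, which missed the threshold (adjusted p = 0.106). That difference passed with no filter on low counts (adjusted p = 2.75e-06). It was −1.08 without cKO IFNγ replicate 1 and −3.95 without cKO IFNγ replicate 2, each of which leaves 1 cKO library. The cKO library at 201 CPM, IFNγ replicate 1, is the smallest of the study, with 3614967 counts, and stands apart from its replicate, with 57.1% of reads unmapped against 12.6 to 18.3% in the other day 8 libraries. Its stromal markers summed to 421 CPM against 70.1 CPM in replicate 2 and 12.0 to 64.4 CPM in WT with IFNγ, where 0 of 9 tested were called between genotypes. The part of these differences in the Cxcl9, Cxcl10 and Cxcl16 levels was not tested. Without this library, which leaves 1 cKO library with IFNγ, the rise in cKO was 11.63 for Cxcl9, 5.36 for Cxcl10 and 1.96 for Cxcl16. No member was called between the genotypes under IFNγ with edgeR or DESeq2, where edgeR called 5.48% of genes. At an unadjusted p under 0.05 there were 1 of 6 members and 3434 of 13075 genes. The difference in the IFNγ effect on Cxcl9 was −2.62 ± 1.18 (adjusted p = 0.541). It was −4.66 without cKO IFNγ replicate 2, where the 1 cKO library left is the one with 57.1% of reads unmapped. For these differences in IFNγ effect edgeR called 0% of all genes and 0 members, while 1207 genes and 1 member had an unadjusted p under 0.05, and DESeq2 called 78 genes and no member.

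IFNγ moved members of the family in opposite directions. All 6 tested members were called in WT, against 38.9% of genes, and 5 of 6 in cKO, against 33.9%. The Cxcr3 ligands and Cxcl16 rose, while Cxcl2 and Cxcl14 fell in both genotypes. Cxcl2 went from 6.13, 8.16 and 6.55 CPM to 0, 0.445 and 0.721 CPM in WT, and from 8.99 and 9.46 CPM to 0 and 0.940 CPM in cKO. Its libraries did not overlap between treatments, and the log2 fold changes were −4.16 ± 0.65 (adjusted p = 0.000623) and −3.66 ± 0.80 (adjusted p = 0.00578), the latter lost when only the cKO groups were fitted (adjusted p = 0.070). Cxcl1 was already low, at 0.766, 2.12 and 1.22 CPM in untreated WT and 0, 0.742 and 0 CPM with IFNγ, a log2 fold change of −2.60 ± 0.96 at the edge of the threshold (adjusted p = 0.0488). Blocked by replicate number, which paired these WT libraries, it was −2.69 (adjusted p = 0.0613). That Cxcl1 call was lost without untreated WT replicate 1, 2 or 3 (adjusted p of 0.0591, 0.153 and 0.0917) and without IFNγ WT replicate 1 or 3 (0.143 and 0.146). In cKO Cxcl1 stood at 1.05 and 0.780 CPM untreated and at 0 and 0.352 CPM with IFNγ, which was not called. Cxcl3 was at or near 0 in every day 8 group, with 1 to 3 counts per group, and was not tested.

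**Figure D2:**
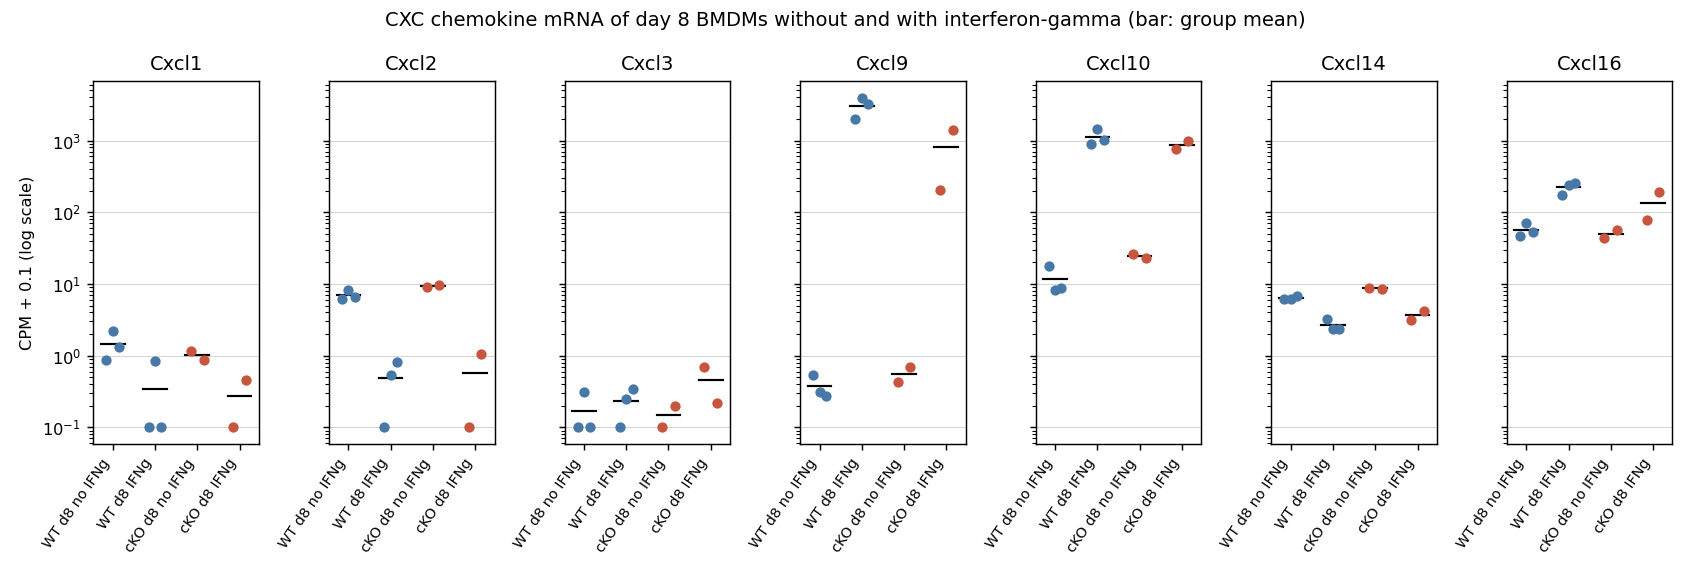
Levels of the 7 CXC chemokines in day 8 BMDMs without and with IFNγ, as CPM + 0.1 on a log axis, so that a level of 0 is drawn at 0.1; each point is 1 library (blue WT, red cKO) and bars are group means. Cxcl9, Cxcl10 and Cxcl16 points move up with IFNγ and Cxcl2 and Cxcl14 points move down in both genotypes.

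In the antibody experiment Cxcl10 was low, and higher in cKO. Without antibody WT libraries were at 2.84, 1.79 and 1.21 CPM and cKO libraries at 12.3, 8.08 and 2.66 CPM, a log2 fold change of 1.99 ± 0.45 (adjusted p = 0.0148). The lowest cKO library lay within the WT range, and the call was lost without WT replicate 2 (adjusted p = 0.0712), WT replicate 3 (0.0829) or cKO replicate 1 (0.101), and when only the groups of this arm were fitted (0.0615). In this arm 3 of 6 members were called with edgeR, against 8.16% of genes, and 4 with DESeq2, which called 2182 genes. With the control antibody Cxcl10 stood at 0.559, 0.283 and 0.0914 CPM in WT and 1.28, 1.44 and 1.55 CPM in cKO, without overlap. The log2 fold change of 2.06 ± 0.80 missed the threshold (adjusted p = 0.185) and passed when only these groups were fitted (adjusted p = 0.00705). No member was called with edgeR in the control antibody arm, where it called 5.11% of genes. At an unadjusted p under 0.05 there were 2 of 6 members and 2757 of 17191 genes. DESeq2 called 1 member, Cxcl10 (adjusted p = 0.0217), and 1149 genes. With the IFNAR1 antibody the levels were 0.845, 2.01 and 1.29 CPM in WT and 9.25, 6.44 and 5.52 CPM in cKO. These groups did not overlap either, and the log2 fold change was 2.42 ± 0.48 (adjusted p = 0.0278), the 1 call among 6 members against 0.698% of genes. That call was lost without WT replicate 1 (adjusted p = 0.142) or without cKO replicate 1, 2 or 3 (0.0509, 0.0622 and 0.0502), and when only these groups were fitted (0.242).

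Cxcl10 was lower with the control antibody than without antibody, in WT by −2.55 ± 0.73 (adjusted p = 0.0396) and in cKO by −2.49 ± 0.51 (adjusted p = 0.0255). It was the 1 called member of 6 in each comparison, against 9.74% of genes in WT and 2.09% in cKO. The WT call was lost whichever of the 6 libraries was left out (adjusted p of 0.0572 to 0.155) and with the strand column of the larger total (0.0634), and the cKO call was lost without no antibody replicate 1 or 2 or control antibody replicate 1, 2 or 3 (adjusted p of 0.0778 to 0.148). From the control to the IFNAR1 antibody, Cxcl10 in cKO rose by 2.37 ± 0.52 (adjusted p = 0.0192). It was the 1 called member of 6 there, against 4.68% of genes, and the call was lost without control antibody replicate 1, 2 or 3 (adjusted p of 0.0821, 0.0603 and 0.0768) or IFNAR1 antibody replicate 1 (0.0926). In WT the same contrast gave 2.003 ± 0.77 (adjusted p = 0.0897), and 2.11 when blocked by replicate number (adjusted p = 0.0456). No member was called in WT with edgeR, where 11.2% of genes were called. At an unadjusted p under 0.05 there were 2 of 6 members and 5817 of 17191 genes. DESeq2 called 1 member and 3086 genes. The IFNAR1 antibody effect on Cxcl10 differed between genotypes by 0.37 ± 1.07 (adjusted p = 0.973). For this difference in antibody effect edgeR called 0 members and 0% of genes, 0 members and 990 genes had an unadjusted p under 0.05, and DESeq2 called 0 members and 44 genes. These comparisons share the control antibody libraries, where Cxcl10 was lowest in both genotypes. Mean Cxcl10 in cKO was 7.66 CPM without antibody, 1.42 CPM with the control and 7.07 CPM with the IFNAR1 antibody. In WT these means were 1.95, 0.311 and 1.38 CPM. Levels without antibody and with the IFNAR1 antibody overlapped in each genotype, and these 2 arms were not compared by a test. In cKO the stromal markers summed to 234.7 to 444 CPM with the control antibody, against 48.3 to 105 CPM without antibody and 60.7 to 114 CPM with the IFNAR1 antibody, where 1 of 8 tested, Pdgfrb, was called higher from none to control and lower from control to IFNAR1. Neutrophil markers in cKO summed to 74.0 to 96.5 CPM without antibody, 104 to 213 CPM with the control and 114 to 139 CPM with the IFNAR1 antibody, with none of the 2 tested called. In WT the stromal sums overlapped across the arms, at 15.7 to 123.5 CPM, 18.5 to 282 CPM and 7.71 to 145 CPM. The part of these markers in the Cxcl10 changes was not tested.

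Among the BMDM sets with double KOs, Cxcl10 in set 1 stood at 14.6, 2.50 and 3.10 CPM in WT and at 23.6, 15.7 and 21.4 CPM in cKO. All cKO libraries lay above all WT libraries, with a log2 fold change of 1.61 ± 0.48 (adjusted p = 0.0105), and the call was lost without WT replicate 2 (1.17, adjusted p = 0.069) or 3 (1.31, adjusted p = 0.0585). In set 3 WT libraries were at 12.0, 3.19 and 4.12 CPM and cKO libraries at 18.3, 13.5 and 15.8 CPM, again apart, with a log2 fold change of 1.25 ± 0.47 (adjusted p = 0.0393). The set 3 call was lost without WT replicate 2 or 3 (adjusted p of 0.151 and 0.139) or cKO replicate 1 or 3 (0.0966 and 0.077), and when only the groups of set 3 were fitted (0.0632). Set 2 held 2.70, 2.65 and 4.17 CPM in WT and 6.78, 11.7 and 5.15 CPM in cKO, without overlap, and its log2 fold change of 1.34 ± 0.51 missed the threshold (adjusted p = 0.0633). It passed when only the groups of set 2 were fitted (1.36, adjusted p = 0.00655), with no filter on low counts (adjusted p = 0.0366) and with the strand column of the larger total (adjusted p = 0.0466). In sets 1 and 3, 2 of 7 members were called in each, and in set 2 only Cxcl9, against 34.6%, 35.9% and 21.9% of genes. Markers of other cells moved with genotype here too: the summed CPM of the dendritic cell markers was 3.13 to 6.28 in WT and 12.99 to 17.1 in cKO of set 1, 4.13 to 4.89 and 11.7 to 20.4 in set 3, and 1.57 to 2.43 and 5.30 to 6.23 in set 2, with 5, 5 and 4 of 5 higher. Neutrophil markers went from 110 to 167 in WT to 286 to 354 in cKO of set 1 and from 105 to 169 to 265 to 387 in set 3, with 6 of 9 tested higher in each, against 2 of 9 in set 2, and 4, 2 and 3 of 5 B cell markers were higher in sets 1, 2 and 3. Over all genes 17.9%, 10.1% and 17.1% were higher in cKO of sets 1, 2 and 3. None of these markers was at 0 throughout a group, and their part in the Cxcl10 and Cxcl14 results of the sets was not tested. In total the fold change of Cxcl10 was positive in 10 of the 11 comparisons of cKO with WT in which it was tested. Among these is day 7, where the genotypes overlapped and the sign turned when some single libraries were left out. Cxcl10 was called in 6, among them sets 1 and 3, which may not be independent.

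Double KO libraries held Cxcl10 at 6.45, 11.3 and 11.1 CPM with Sting KO, at 7.23, 9.01 and 3.92 CPM in the libraries labelled Mavs KO, and at 23.2, 15.7 and 15.9 CPM with Irf7 KO. Against the mean of the cKO sets, the log2 fold changes were −0.51 ± 0.38 (adjusted p = 0.329), −1.01 ± 0.39 (0.116) and 0.42 ± 0.35 (0.506), none of them called. Against set 2 alone the Sting KO difference turned to 0.28, and against set 1 alone the Irf7 KO difference turned to −0.15 and the Mavs KO difference passed the threshold (−1.58, adjusted p = 0.0226), as it did when only the groups compared were fitted (−1.02, adjusted p = 0.012). Irf7 KO libraries lay above the mean of the WT sets by 1.82 ± 0.36 (adjusted p = 0.000348), a call that held under every alternative tried. Sting KO and Mavs KO libraries differed from the WT mean by 0.89 ± 0.39 (adjusted p = 0.0723) and 0.39 ± 0.40 (adjusted p = 0.461). Those 2 differences passed without WT set 1 replicate 1 (1.31, adjusted p = 0.00206, and 0.82, adjusted p = 0.0439), and the Sting KO difference also without WT set 3 replicate 1 (1.18, adjusted p = 0.0105). The Sting KO difference also passed against set 2 alone (1.62, adjusted p = 0.0125), under a replicate block (0.99, adjusted p = 0.0387) and with no filter on low counts (0.91, adjusted p = 0.0479). Against cKO, edgeR called 0 of 7 members for Sting KO, where 36.4% of genes were called. At an unadjusted p under 0.05 there were 0 members and 8059 of 18083 genes, and DESeq2 called 1 member and 6589 genes. For Mavs KO edgeR also called none, against 9.32% of genes. There 2 members and 4044 of 18083 genes had an unadjusted p under 0.05, and DESeq2 called 0 members and 1923 genes. For Irf7 KO edgeR called 2, against 10.6%. Against WT, 2, 4 and 2 of 7 members were called for Sting KO, Mavs KO and Irf7 KO, against 40.2%, 43.2% and 31.9% of genes. Against the set that stands directly before each double KO, the Sting KO and Irf7 KO calls against WT were kept. There the 4 Mavs KO calls against WT (set 2) and the 2 Irf7 KO calls against cKO (set 3) were lost. The 3 comparisons with a mean of sets share their control libraries. Stromal markers summed to 199 to 247 CPM with Sting KO and 108 to 373 CPM with Mavs KO. They summed to 39.6 to 61.5 CPM with Irf7 KO, 13.4 to 110 CPM over the WT sets and 32.0 to 88.5 CPM over the cKO sets. Neutrophil markers with Irf7 KO summed to 154 to 165 CPM, against 189 to 387 CPM over the cKO sets. The part of these markers in the double KO results of any member was not tested.

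Cxcl9 was countable in these deep libraries but stayed at 0.542 CPM or less. In set 2 it was lower in cKO, at 0.0222, 0.0746 and 0 CPM against 0.177, 0.292 and 0.265 CPM in WT, a log2 fold change of −2.77 ± 0.78 (adjusted p = 0.0102) lost without cKO replicate 1 (adjusted p = 0.0528) or 3 (0.0512). Libraries labelled Mavs KO held Cxcl9 at 0.121, 0.0255 and 0.0585 CPM, −1.77 ± 0.63 against the WT mean (adjusted p = 0.0236), which was lost against set 2 or set 3 alone (0.060 and 0.282) and without Mavs KO replicate 2 or 3 (0.139 and 0.0777). In sets 1 and 3, Cxcl9 levels of cKO and WT overlapped.

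In peritoneal macrophages Cxcl10 was almost absent. WT libraries held 0, 0.0709 and 0.0455 CPM and cKO libraries 0.256, 0.474 and 0.389 CPM, which are 2 and 18 counts. The levels did not overlap, and the ratio of the summed counts per depth was 8.73 (exact 95% interval 2.09 to 77.6, counting error only), with no test across genes. Cxcl9 did not exceed 0.449 CPM in these libraries and Cxcl3 did not exceed 0.389 CPM.

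Of the ELR ligands, Cxcl3 was called lower on day 7 than on day 3 in both genotypes, Cxcl1 in WT only and Cxcl2 in neither. Cxcl1 (ENSMUSG00000029380.11, chr5:90891241-90893115), Cxcl2 (ENSMUSG00000058427.10, chr5:90903871-90905938) and Cxcl3 (ENSMUSG00000029379.10, chr5:90786103-90789600) all lie on the plus strand. Cxcl3 stood at 22.7, 3.69 and 8.58 CPM in WT and 17.5, 7.45 and 7.26 CPM in cKO on day 3. By day 7 it was at 0.417, 0 and 0.207 CPM in WT and 0.999, 0.0585 and 0.0524 CPM in cKO. The days did not overlap in either genotype, and Cxcl3 fell by 5.63 ± 0.86 on the log2 scale in WT (adjusted p = 0.000459) and by 4.87 ± 0.80 in cKO (adjusted p = 0.000719). These 2 calls held under every alternative tried. On day 3 the genotypes overlapped for all 3 ELR ligands. From day 3 to day 7, 3 of 6 members were called in WT, against 24.5% of genes, and 2 of 6 in cKO, against 14.7%. Cxcl2 went from 58.2, 4.10 and 8.19 CPM to 6.72, 4.05 and 9.30 CPM in WT and from 52.6, 10.3 and 15.04 CPM to 9.63, 9.48 and 8.44 CPM in cKO, neither of them called.

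Cxcl1 in WT was at 22.8, 1.11 and 1.29 CPM on day 3 and at 1.35, 0.419 and 1.24 CPM on day 7. Its log2 fold change of −2.97 ± 0.93 (adjusted p = 0.0309) rested on WT day 3 replicate 1, since without that library it was −0.22 (adjusted p = 0.84), and the call was also lost without WT day 7 replicate 2 or 3 (adjusted p of 0.104 and 0.0661), when only these 2 groups were fitted (0.161) and with DESeq2, which gave no adjusted p. The same library was the highest of its group for all 3 ELR ligands, as was cKO day 3 replicate 1. Neutrophil markers fell over the same days, with 10 of 10 lower on day 7 in both genotypes, where 11.9% of all genes were lower in WT and 8.25% in cKO. Their summed CPM went from 1869 to 3418 per WT library on day 3 to 110 to 179 on day 7, and from 2952 to 4444 to 129 to 333 in cKO. Cxcr2, the neutrophil receptor of these ligands, was lower on day 7 as well, by −2.84 in WT (adjusted p = 0.00602) and −4.19 in cKO (adjusted p = 0.000577). The part of neutrophils in the decline of Cxcl3 or in the Cxcl1 call in WT was not tested.

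**Figure D3:**
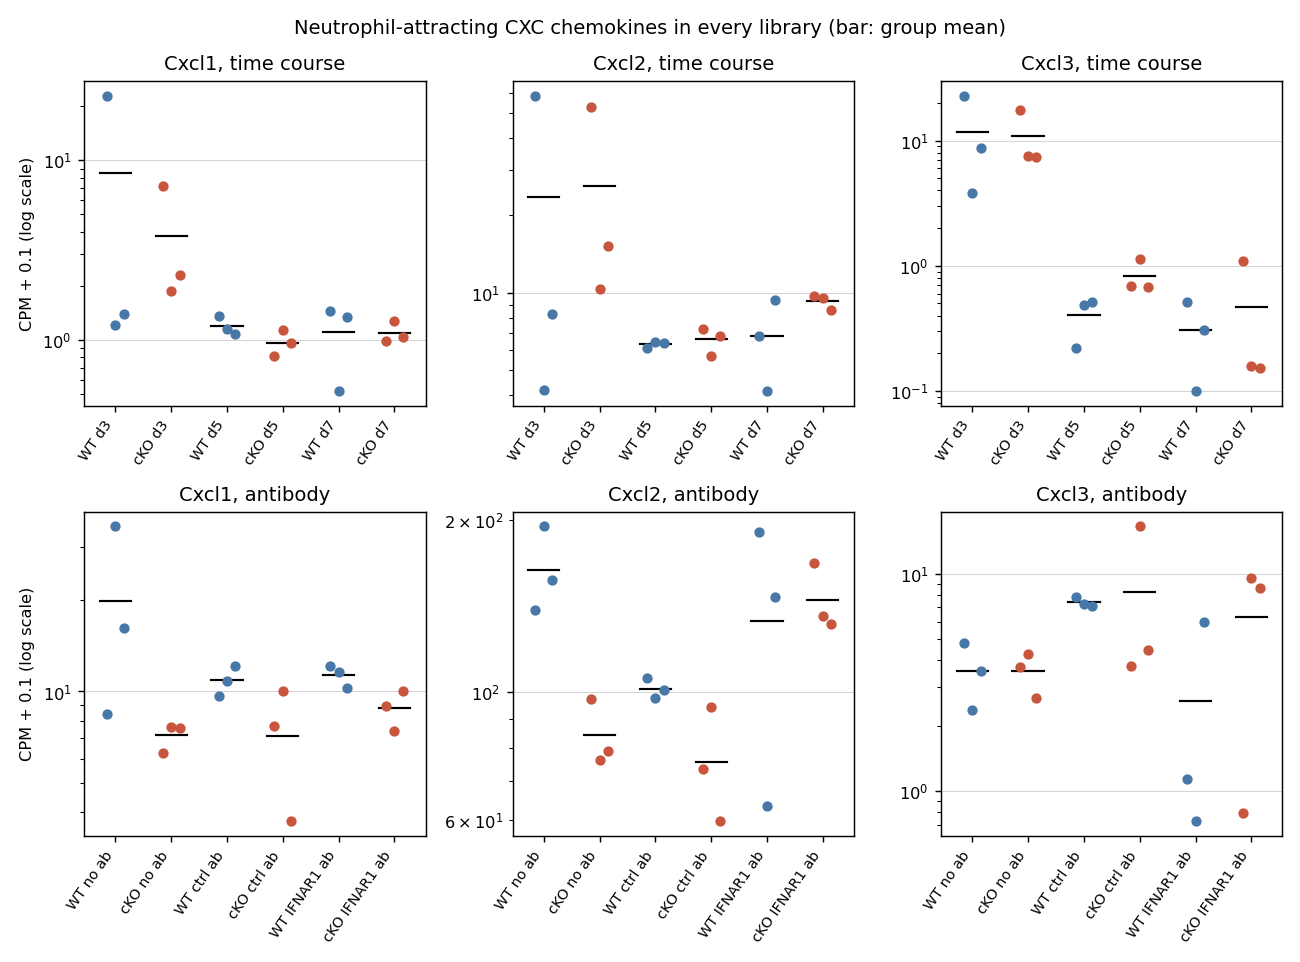
Cxcl1, Cxcl2 and Cxcl3 in the time course (upper panels) and the antibody experiment (lower panels), as CPM + 0.1 on log axes whose ranges differ; each point is 1 library (blue WT, red cKO) and bars are group means. The Cxcl3 points fall from day 3 to day 7 in both genotypes, and the Cxcl2 points of the antibody experiment lie between 59.5 and 195 CPM.

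In BMDMs without antibody the ELR ligands Cxcl1 and Cxcl2 were lower in cKO. Cxcl2 stood at 139, 195 and 157 CPM in WT and at 97.2, 76.2 and 78.8 CPM in cKO, a log2 fold change of −0.96 ± 0.28 (adjusted p = 0.0469) with no overlap. Cxcl1 was at 8.30, 35.0 and 16.1 CPM in WT and at 6.18, 7.52 and 7.49 CPM in cKO, also apart, by −1.49 ± 0.39 (adjusted p = 0.0283). Both calls were lost without WT replicate 2 or 3 or any cKO library, with adjusted p of 0.0592 to 0.212 for Cxcl1 and of 0.0874 to 0.202 for Cxcl2, and without WT replicate 2 the Cxcl1 fold change was −0.80. The Cxcl1 call was also lost when only these groups were fitted (adjusted p = 0.0802), and the Cxcl2 call with no filter on low counts (adjusted p = 0.056). Cxcl3 overlapped, at 4.69, 2.26 and 3.49 CPM in WT and 3.62, 4.16 and 2.59 CPM in cKO. With the control antibody Cxcl2 was at 106, 97.7 and 101 CPM in WT and 73.3, 94.2 and 59.5 CPM in cKO, and with the IFNAR1 antibody at 190, 63.2 and 146 CPM and 168, 136 and 131 CPM. Neither arm was called, and whether the genotype difference of Cxcl2 or Cxcl1 differed between arms was not tested. In cKO Cxcl2 was higher with the IFNAR1 than with the control antibody in all libraries, by 0.94 ± 0.28, which missed the threshold with edgeR (adjusted p = 0.0717) and passed with DESeq2 (adjusted p = 0.0288).

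With the double KOs the ELR ligands were low, with Cxcl1 at 0.434 to 5.11 CPM over the WT sets and 0.131 to 1.10 CPM over the cKO sets. WT replicate 1 of sets 1 and 3 was the highest of its group for Cxcl1, Cxcl2, Cxcl3 and Cxcl10. Cxcl1 was lowest with Sting KO, at 0.106, 0.288 and 0.0370 CPM, −3.23 ± 0.91 against the mean of the WT sets (adjusted p = 0.0062), a call lost against set 2 alone (−2.27, adjusted p = 0.11). In the libraries labelled Mavs KO it was at 0.638, 0.382 and 0.351 CPM, −1.61 ± 0.64 against WT (adjusted p = 0.0438). That call was lost without WT replicate 1 of set 1 or set 3 (−1.06, adjusted p = 0.104, and −1.11, adjusted p = 0.128), without any library of WT set 2 (0.0534 to 0.0586) or without any Mavs KO library (0.0627 to 0.135), and against set 2 alone it was −0.65 (adjusted p = 0.636). It was lost as well when only the groups compared were fitted (0.142) and with the strand column of the larger total (0.0862). EdgeR called no ELR ligand between cKO and WT within a set or between a double KO and cKO, while DESeq2 called Cxcl1 lower with Sting KO than in the cKO sets (adjusted p = 0.0201), as did edgeR with the replicate block (adjusted p = 0.0381).

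Cxcl14 (ENSMUSG00000021508.11, chr13:56288643-56296551, minus strand) differed from WT in opposite directions in the peritoneal libraries and in BMDM sets 1 and 3. In peritoneal macrophages it was lower in cKO, at 3.46, 2.90 and 4.67 CPM against 10.8, 13.5 and 17.1 CPM in WT. The groups were well apart, with a log2 fold change of −1.96 ± 0.27 (adjusted p = 0.0159), and Cxcl14 was the 1 called member of the 4 tested, against 1.06% of genes. The call was lost without cKO replicate 1 (adjusted p = 0.0875) or cKO replicate 2 (0.0716), with fold changes of −1.92 and −1.81. Stromal markers in the peritoneal libraries summed to 12.4 to 86.8 CPM in WT and 8.64 to 30.8 CPM in cKO. Dendritic cell markers summed to 5.39 to 7.58 CPM in WT and 6.80 to 20.9 CPM in cKO. Both sums overlapped between genotypes, and the part of these markers in the peritoneal Cxcl14 result was not tested. In BMDM set 1 Cxcl14 was higher in cKO, at 24.7, 24.0 and 25.9 CPM against 14.1, 12.9 and 11.6 CPM in WT. Set 3, which may not be independent of set 1, looked alike, at 16.9, 22.5 and 19.96 CPM in cKO and 9.43, 12.0 and 9.77 CPM in WT. Neither set overlapped, and the log2 fold changes were 0.95 ± 0.26 (adjusted p = 0.00668) and 0.93 ± 0.27 (adjusted p = 0.00803), calls that held under every alternative tried. In set 2 Cxcl14 overlapped, at 17.1, 21.4 and 24.7 CPM in WT and 32.8, 12.5 and 31.9 CPM in cKO.

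On day 3 Cxcl14 stood at 16.3, 11.8 and 3.76 CPM in WT and 5.27, 2.12 and 2.82 CPM in cKO. The log2 fold change of −1.63 ± 0.60 missed the threshold with edgeR (adjusted p = 0.11) and passed with DESeq2 (adjusted p = 0.0312) or without WT replicate 3 (adjusted p = 0.0389). Cxcl14 rose in cKO to 17.2, 10.7 and 11.8 CPM on day 7, by 1.96 ± 0.59 (adjusted p = 0.0365), a call lost whichever of the 6 libraries was left out (adjusted p of 0.0503 to 0.137). On day 8 IFNγ lowered Cxcl14 from 6.02, 6.04 and 6.72 CPM to 3.10, 2.23 and 2.28 CPM in WT and from 8.75 and 8.39 CPM to 3.01 and 4.11 CPM in cKO. The treatments did not overlap, with log2 fold changes of −1.29 ± 0.21 (adjusted p = 0.00109) and −1.20 ± 0.27 (adjusted p = 0.0075), the latter lost with the strand column of the larger total (0.129) and when only the cKO groups were fitted (0.0975). Irf7 KO libraries held Cxcl14 at 6.45, 11.6 and 13.7 CPM, −1.14 ± 0.23 against the mean of the cKO sets (adjusted p = 0.00181), and the call was lost against set 3 alone (−0.90, adjusted p = 0.0961). With Sting KO Cxcl14 was at 18.2, 23.02 and 23.8 CPM and with Mavs KO at 26.0, 31.0 and 36.9 CPM, 0.62 ± 0.21 (adjusted p = 0.019) and 1.15 ± 0.20 (adjusted p = 4.12e-05) above the WT mean. Both were lost against set 2 alone (0.05, adjusted p = 0.905, and 0.57, adjusted p = 0.102), and the Sting KO call also without Sting KO replicate 2 or 3 (adjusted p of 0.0735 and 0.0969).

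**Figure D4:**
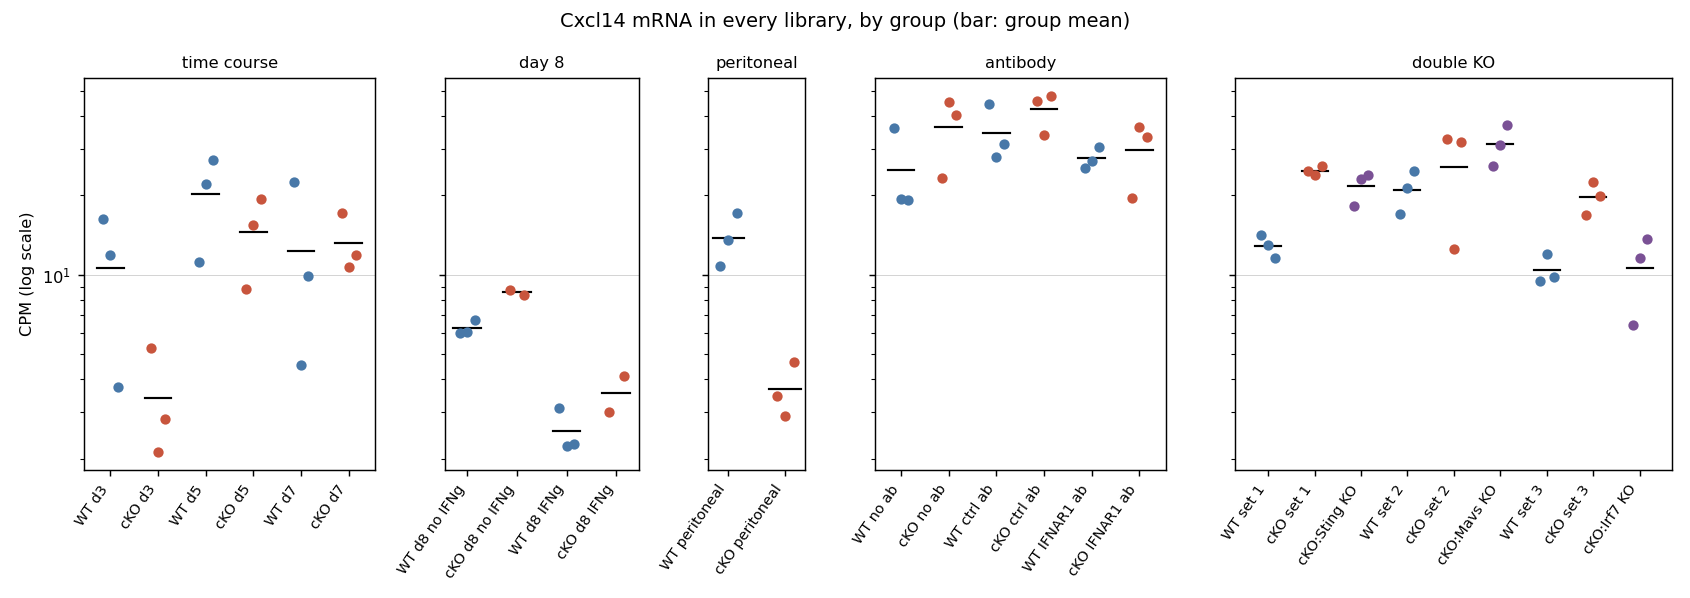
Cxcl14 level in every placed library, in CPM on a log axis, by group within each experiment; points are libraries (blue WT, red cKO, purple double KO) and bars are group means. The cKO points lie below WT in peritoneal macrophages (2.90 to 4.67 against 10.8 to 17.1 CPM) and above WT in BMDM sets 1 and 3.

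Cxcl16 (ENSMUSG00000018920.11, chr11:70453983-70459984, minus strand) was expressed in every library, from 31.6 CPM in a WT peritoneal library to 258 CPM in a WT library with IFNγ. It was not called in any of the 12 comparisons of cKO with WT with edgeR. The unadjusted p was under 0.05 in 4 of them, the 3 antibody arms and set 2, and DESeq2 called it lower in cKO without antibody (adjusted p = 0.0496). In the antibody experiment its cKO levels were 43.7, 46.2 and 35.9 CPM without antibody, 34.9, 47.5 and 33.0 CPM with the control antibody and 61.2, 48.3 and 39.9 CPM with the IFNAR1 antibody. All of these lay below the WT libraries of the same arm, at 73.1, 58.7 and 52.7 CPM, at 63.2, 51.0 and 59.2 CPM, and at 68.4, 90.9 and 71.1 CPM. IFNγ raised Cxcl16 from 47.0, 71.3 and 53.7 CPM to 174, 240 and 258 CPM in WT, by 1.96 ± 0.31 (adjusted p = 0.000832). In cKO it went from 43.9 and 55.8 CPM to 77.1 and 190 CPM, by 1.43 ± 0.38 (adjusted p = 0.0159), a call lost without untreated replicate 1 or 2 (adjusted p of 0.124 and 0.0629) or IFNγ replicate 2 (0.60, adjusted p = 0.131), and when only the cKO groups were fitted (adjusted p = 0.130). Irf7 KO libraries were low, at 36.4, 59.7 and 51.3 CPM, −0.73 ± 0.15 against the mean of the WT sets (adjusted p = 0.000435), which held under every alternative tried. Against the cKO sets the difference was −0.51 ± 0.14 (adjusted p = 0.0232), lost without Irf7 KO replicate 1 (−0.34, adjusted p = 0.221) or 3 (0.0573) and against set 2 or set 3 alone (−0.22, adjusted p = 0.408, and −0.56, adjusted p = 0.121). In the libraries labelled Mavs KO, Cxcl16 stood at 66.8, 57.3 and 58.5 CPM, −0.42 ± 0.14 against WT (adjusted p = 0.0191), lost without Mavs KO replicate 2 or 3 (0.086 and 0.0778) and against set 2 or 3 alone (0.22 and 0.076), and when only the groups compared were fitted (0.0562). Of the proteases that release Cxcl16, Adam10 was called higher in cKO in 3 of 12 comparisons and Adam17 lower in 2.

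**Figure D5:**
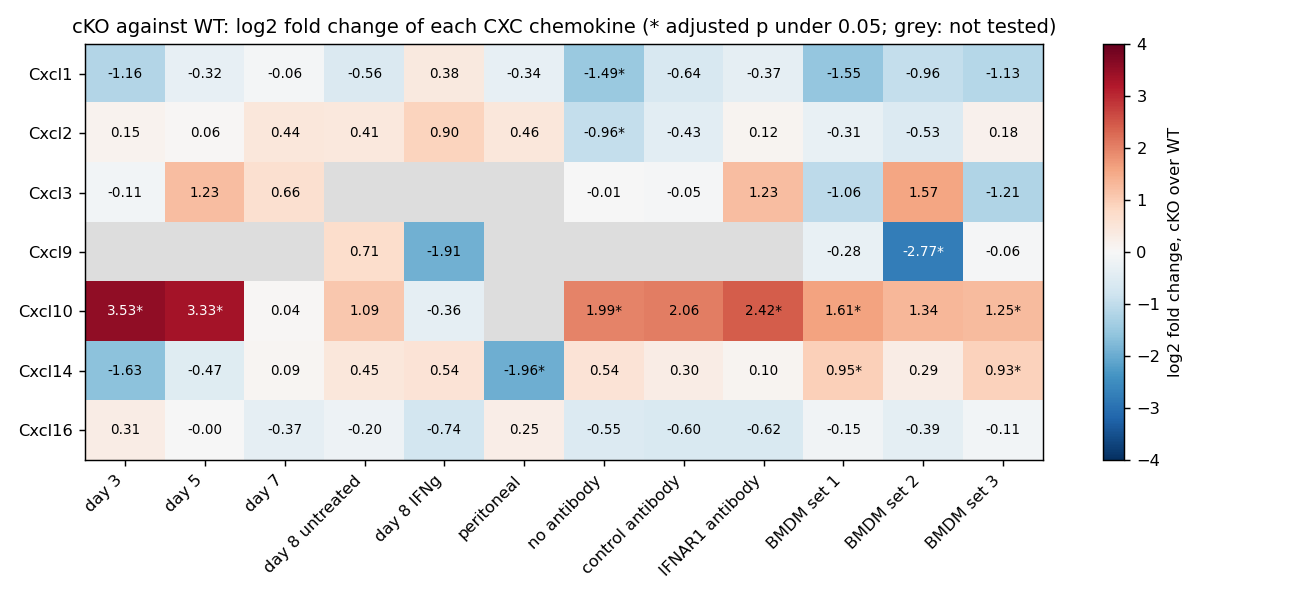
Log2 fold changes of the CXC chemokines in the 12 comparisons of cKO with WT, as a colour scale with the value written in the cell; an asterisk marks an adjusted p under 0.05 and grey cells were not tested. Cxcl10 is positive in 10 of 11 comparisons of cKO with WT, and edgeR called Cxcl16 in none of 12.

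Per kilobase of exon, the order of the 7 genes differed between groups. In WT BMDMs on day 7, Cxcl16 had the highest mean level, 41.4 CPM per kb, followed by Cxcl10 (16.5), Cxcl14 (6.74) and Cxcl2 (3.23), with overlap between each of these and the one named after it and none between Cxcl2 and Cxcl1 (0.536). With IFNγ the WT order was Cxcl9 at 1013 CPM per kb, Cxcl10 at 495 and Cxcl16 at 74.1, with no overlap between neighbours. Without antibody Cxcl2 led in WT at 79.1 CPM per kb, apart from Cxcl16 at 20.4. These cells are likewise BMDMs without treatment, but from the antibody experiment, whose cells were lysed before day 7 by the paper's methods. Culture day thus differs from that of the day 7 and day 8 cells, and its part in the Cxcl2 level was not tested. In WT BMDMs of day 7 and of day 8 without IFNγ, Cxcl2 stood at 3.23 and 3.36 CPM per kb. In WT peritoneal macrophages Cxcl16 led at 13.2 CPM per kb, apart from Cxcl14 at 7.56, which overlapped with Cxcl2 at 5.45. Experiments were normalised separately, so these levels were not tested across experiments.

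Other genes of the same pathways were read from lists that were chosen with earlier results of these data known. Of the 14 tested genes of interferon signalling, 7 were higher and 1, the receptor gene Ifnar1, was lower in cKO on day 3, with a list median log2 fold change of 0.44 against 0.04 over all genes. On day 5, 6 were higher, where 2.46% of all genes were higher, with a median of 0.46 against 0.01. None was called on day 7, where the list median was −0.04. Irf7, a transcription factor that amplifies the interferon response, was higher in cKO in 11 of 12 comparisons, from 1.45 in set 2 (adjusted p = 0.000185) to 6.61 on day 3 (adjusted p = 0.000872). Stat2, which carries the type I interferon signal to the nucleus, was higher in 7 of 12, with a log2 fold change of 2.83 on day 3 (adjusted p = 0.00076). Irf1, an IFNγ target, was higher in 2 of 12 comparisons and rose with IFNγ by 4.98 in WT (adjusted p = 1.97e-07) and 4.27 in cKO (adjusted p = 3.71e-06). Cxcl10 was called in cKO against WT with the IFNAR1 antibody, an arm in which 1 of 13 interferon genes, Irf7, was higher, against 0.483% of all genes. Of 13 tested NF-κB genes, 4 (Nfkbia, Tnfaip3, Il1a and Il1b) were lower on day 7 than on day 3 in each genotype, where 11.9% of all genes were lower in WT and 8.25% in cKO, and none was called between genotypes on days 3, 5 or 7. Among them Il1b, an inflammatory cytokine, fell by 3.44 in WT (adjusted p = 0.0394) and by 5.13 in cKO (adjusted p = 0.00401), and Nfkbia, the inhibitor of NF-κB, by 1.06 (adjusted p = 0.0372) and 1.08 (adjusted p = 0.0473). Tnf was higher in cKO in sets 1 and 3, by 1.45 (adjusted p = 8.84e-09) and 1.62 (adjusted p = 1.54e-09). Il1b and Nfkbia were not called in any of 12 comparisons of cKO with WT. Of 3 genes of chemokine mRNA decay none was called between genotypes in the time course, and Zfp36l1, which promotes decay of AU-rich mRNAs, was lower in cKO in sets 1 and 3 (−0.67, adjusted p = 0.0428, and −0.97, adjusted p = 0.00413).

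Receptors and the remaining CXC ligands were also counted. Cxcr3, the receptor of Cxcl9 and Cxcl10, was higher in cKO in 5 of 12 comparisons, by 1.62 to 1.97 on the log2 scale, and lower with IFNγ, by −3.38 in WT (adjusted p = 0.000788) and −2.99 in cKO (adjusted p = 0.00751). T and NK cell markers summed to at most 1.205 CPM in any placed BMDM or progenitor library. In each antibody group 4 or 5 of 5 were at 0, but none was at 0 throughout cKO sets 1 and 3 or the double KOs. Dendritic cell and B cell markers were higher in cKO in the sets. The part of any of these cells in the Cxcr3 results was not tested. Of the other CXC ligands, 3 of 4 tested fell from day 3 to day 7 in both genotypes, where 11.9% of all genes were lower in WT and 8.25% in cKO. In peritoneal macrophages 2 of 3 were lower in cKO, against 0.421% of all genes. Chosen after their values were seen, these are Cxcl5, Ppbp and Pf4 for the days, and Cxcl12 (−1.29, adjusted p = 0.0445) and Cxcl13 (−3.82, adjusted p = 0.0217) for the peritoneal cells. Cxcl11, the remaining Cxcr3 ligand, which the annotation lists as a polymorphic pseudogene, was also named for its values and rose with IFNγ by 8.51 in WT (adjusted p = 0.000117) and 8.67 in cKO (adjusted p = 0.000857).

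Over the 27 group means, each centred on its experiment, Cxcl9 and Cxcl16 had a Pearson r of 0.804, Cxcl1 and Cxcl2 of 0.792 and Cxcl9 and Cxcl10 of 0.784, while Cxcl2 and Cxcl9 had −0.795. These are descriptions of groups that share libraries, normalisation and the wide IFNγ contrast. Among 11253 genes searched, the patterns most like Cxcl1 were those of Egln3 (0.797), Fth1 (0.791) and Rp9 (0.776), and most like Cxcl2 those of Sel1l3 (0.884), Tomm20 (0.864) and Adssl1 (0.861). Closest to Cxcl14 were Apbb2 (0.848), Tmcc2 (0.837) and Usp49 (0.794), and closest to Cxcl16 were Cept1 (0.900), Cd52 (0.897) and Cybb (0.897). Cxcl3, Cxcl9 and Cxcl10 were not tested in all 5 experiments and were left out of that search.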

How the data were processed

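Reads per gene were counted by the authors with STAR on mm10 after Cutadapt, per the submitters' processing notes, and deposited as raw counts per library; the unstranded column was used, with symbols from GENCODE vM21. The labels give NEBNext rRNA depletion for all libraries, and the methods a SMART-Seq kit for peritoneal cells. Each of the 5 experiments was fitted by itself, all groups in 1 model, by edgeR 4.0.16 and its quasi-likelihood test (TMM, filterByExpr with a smallest count of 10 and a smallest total of 15). A gene was called at a Benjamini-Hochberg adjusted p under 0.05 over all genes tested. CPM are counts per 1000000 of the TMM-scaled library size, and errors are SE of log2 fold changes. DESeq2 1.42.0, other normalisation, filters, strand columns, control sets and left-out libraries were alternatives, and the script was tested on simulated data. The members and gene lists were chosen with earlier results of these data known. Genes outside the 7 were named when called in at least 6 of 12 comparisons of cKO with WT, at most 3 per list, with Irf1, Tnf, Il1b, Nfkbia and Cxcr3 always named (a further gene of this rule is not reported here) and, for each of 4 members, the 3 genes of highest r over groups (log2 CPM with a pseudocount of 0.1, mean of at least 1). Cxcr2, Zfp36l1, Adam10, Adam17, Ifnar1, Tnfaip3, Il1a and the other CXC ligands were named after their values were seen. Replicate numbers were taken as pairs where every r of same-numbered deviations was over 0.1: day 3 (0.419, 0.126 and 0.252), day 7 (0.467, 0.153 and 0.201), cKO days 3 and 7 (0.415, 0.138 and 0.284), day 8 WT treatments (0.451, 0.352 and 0.335), peritoneal genotypes (0.144, 0.184 and 0.194) and WT no and control antibody (0.149, 0.145 and 0.284). Intervals and floors cover counting error only.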

Additional observations from a re-analysis of the deposited data

Results flagged for a closer look

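The day 8 cKO library titled without IFNγ, whose library name says IFNγ, entered no comparison. It held Cxcl9 at 1683 CPM (exact 95% interval 1657 to 1709), Cxcl10 at 1047 CPM (1027 to 1068) and Cxcl16 at 182 CPM (173 to 190). Each level was above every untreated day 8 library, the highest of which stood at 0.585, 25.8 and 71.3 CPM. The other library without a group, titled IFNγ, held the 3 genes at 0.403, 19.002 and 45.5 CPM.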

How the results depend on the processing

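Of 592 alternative values of the 41 called member and comparison pairs, 470 stayed called in the same direction, 121 lost the call and 1 reversed, and 6 pairs held in every alternative. With the 2 conflicting day 8 libraries placed by title, IFNγ called 0 members in WT and 0 in cKO and Cxcl9 in cKO reversed to −0.051, while placing them by library name changed no call. Fitting only the groups compared gave 0 called members on day 5 and with the IFNAR1 antibody, 1 for days 7 against 3 in WT, without antibody, in set 3, for Mavs KO against cKO and against WT, 2 for IFNγ in cKO, and 3 with the control antibody, for control against no antibody in WT, in set 2 and for Sting KO against cKO. DESeq2 called 2 on day 3 and for days 7 against 3 in WT (Cxcl1 lost), 4 without antibody (Cxcl16 gained), 1 with the control antibody, 1 in WT and 2 in cKO for IFNAR1 against control antibody, and 1 for Sting KO against cKO. Without a filter the counts were 1 for each genotype comparison on day 8 and for the difference in IFNγ effect, and 2 in set 2. The strand column with the larger total gave 0 for control against no antibody in WT and 2 for Mavs KO against WT. Against set 1 alone Mavs KO against cKO gave 2, against set 2 alone Sting KO against cKO and WT gave 1 each and Mavs KO against WT gave 0, and against set 3 alone Irf7 KO against cKO gave 0 and Mavs KO against WT gave 2. Cxcl10 reversed in Sting KO against cKO with set 2 (0.28) and in Irf7 KO against cKO with set 1 (−0.15). The cause was not tested.

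With the replicate block 1 member was called for IFNAR1 against control antibody in WT, 1 for Sting KO against cKO and 4 for Sting KO against WT. Among the paired comparisons the block changed no call but that of Cxcl1 with IFNγ in WT (−2.69, adjusted p = 0.0613). A crossed pairing of the day 8 cKO libraries, chosen after seeing the data, called 5 members.

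Leaving out 1 library, the number of called members ranged from 0 to 1 on day 5, in peritoneal cells, with the IFNAR1 antibody, for control against no antibody in WT and in cKO, and for IFNAR1 against control antibody in WT and in cKO. It ranged from 0 to 2 on day 3 and in set 2, from 0 to 4 without antibody, from 1 to 1 for days 7 against 3 in cKO, from 1 to 2 in set 3, from 1 to 3 for Irf7 KO against cKO and Sting KO against WT, and from 1 to 4 for Mavs KO against WT. For the genotypes under IFNγ and the difference in IFNγ effect no range is given, since leaving out a cKO library leaves 1 in its group. Cxcl10 in cKO against WT on day 7 ranged from −0.42 to 1.74 (reversed at −0.42, −0.34 and −0.09), its change between days in cKO from −0.49 to 0.12, and its difference in IFNAR1 antibody effect from −0.27 to 0.70. With 2 or 3 libraries a group, differences near the threshold are not settled at this depth, and Cxcl3 and Cxcl9 without IFNγ rest on few counts.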
